A study of Mus musculus with 22 samples.

Results

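The genes described here are 9 members of the AP-1 and immediate early group: the Jun genes Jun, Junb and Jund, the Fos genes Fos, Fosb, Fosl1 and Fosl2, and the immediate early genes Egr1 and Ier2. They are 9 of the 55487 genes listed in each of 2 tables of normalised read counts, and were chosen by their levels in the constructs C12345delt14 and FL_Dux, with Junb as the leading gene. The values of that contrast, and the low Junb level of FL_Dux in any contrast, are therefore given as descriptions with no test. For the other members, p-values of comparisons that include FL_Dux come from libraries that took part in the choice. Those p-values may be too small and are not independent support. All cells were Dux-/- mouse embryonic stem cells kept in 2iLIF, the medium with inhibitors and leukaemia inhibitory factor that holds such cells in a naive state, and all carried a doxycycline-inducible construct. After 24 hours of recovery from plating, cells of every group, the controls included, received 0.25 ug/mL doxycycline for 12 hours, and stranded poly(A) RNA libraries were made from them.

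The control group expressed mCherry alone, and the other groups expressed mCherry joined to full-length DUX (FL_Dux) or to one of its derivatives. DUX is a transcription factor with a pair of DNA-binding homeodomains that activates the genes of the embryo at its 2-cell stage, and the names of the derivatives refer to repeats C1 to C5 of its C-terminal part and to the short tail written as 14. The first table, called the chimera table here, holds FL_Dux, C3+14, C1C3a, C1C3b, C1C3c, C1+14 and mCherry, and the second, called the deletion table, holds FL_Dux, C12345delt14, deltC12345+14 and deltC12345delt14, with 2 libraries per group. The FL_Dux libraries are the same in both tables, which were scaled separately, so groups were compared only within a table. The labels do not say how C1C3a, C1C3b and C1C3c differ, nor that the replicates came from separate cultures, so the p-values measure only the spread between these libraries. The labelled background holds no intact Dux in any group, and whether each group is 1 clone or a pool is not stated in the sources used here.

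AP-1 is a dimeric transcription factor. A Jun protein pairs with another Jun protein or with a Fos protein through a leucine zipper, and the dimer binds a short palindromic site; Jun is a strong activator of growth genes, whereas Junb and Jund can dampen its activity. Immediate early genes such as Fos, Egr1 and Ier2 are transcribed within minutes of a growth factor or stress signal, mostly through the MAP kinases and serum response factor, without new protein synthesis, and their transcripts are short-lived. In embryonic stem cells the FGF4 to ERK branch of this signalling pushes cells out of the naive state, and the 2iLIF medium blocks its kinase MEK.

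The chimera libraries held 21059953 to 32543856 reads in genes and the deletion libraries 27326760 to 40448890, and 1 read was worth 0.620 to 1.81 normalised counts. The row of Dux itself (Duxf3 in the annotation) held 0 reads in every library, so it gives no check of the constructs. The summed level of 6 two-cell genes was 0.7 to 0.9 in the mCherry libraries and 725112 to 1355144 in the FL_Dux libraries. The stem cell label fitted the markers: the 10 pluripotency genes summed to 36016 or more in every library, and none of them was at 0. Libraries were of 2 kinds by the share of reads in genes whose transcripts have many near-identical copies: 0.295% to 0.419% in the libraries of mCherry and C3+14, replicate 2 of deltC12345+14 and replicate 1 of deltC12345delt14, and 1.66% to 2.57% in all others. Apart from C3+14, this kind of library therefore cannot be told apart from the construct in the comparisons with mCherry.

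Of the 9 members, 6 matched the RefSeq promoter table (GRCm38.p6, the assembly of mm10). The 250 bases upstream of the start are shown for Junb and Jun, the Jun genes that changed in opposite directions in C3+14 and C1C3b, and for Fos, the partner gene that rose with Jun there; capitals mark the motifs found. In Junb they mark TGACG, the core of a cyclic AMP response element; in Jun, TGACATCA, the AP-1-like element; in Fos, 2 copies of TGACG and the TATA box TATAAA.

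Junb promoter, chr8:84978749-84978998, minus strand: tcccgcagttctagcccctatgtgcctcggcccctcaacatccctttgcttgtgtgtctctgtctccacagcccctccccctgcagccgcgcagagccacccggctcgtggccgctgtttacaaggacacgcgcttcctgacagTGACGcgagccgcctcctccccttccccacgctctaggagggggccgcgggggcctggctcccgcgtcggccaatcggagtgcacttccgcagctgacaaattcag

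Jun promoter, chr4:95052223-95052472, minus strand: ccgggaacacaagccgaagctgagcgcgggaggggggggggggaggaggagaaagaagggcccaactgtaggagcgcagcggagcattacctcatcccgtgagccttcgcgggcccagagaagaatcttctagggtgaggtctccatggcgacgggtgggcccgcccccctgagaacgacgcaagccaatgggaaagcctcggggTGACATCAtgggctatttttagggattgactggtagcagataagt

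Fos promoter, chr12:85473640-85473889, plus strand: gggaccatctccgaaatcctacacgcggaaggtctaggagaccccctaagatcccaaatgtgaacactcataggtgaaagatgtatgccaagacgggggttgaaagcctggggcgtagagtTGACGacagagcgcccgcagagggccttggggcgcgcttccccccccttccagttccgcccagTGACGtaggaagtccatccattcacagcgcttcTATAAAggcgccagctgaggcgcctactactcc

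The TGACG of Junb lay 106 bases before the start and those of Fos at 129 and 66 bases, the TGACATCA of Jun at 45 bases and the TATAAA of Fos at 33 bases. Searched on both strands, TGACG occurred in 17.8% of 32851 mouse promoters of this length and TGACATCA in 2.93%. TATAAA, searched only on the strand of the gene, occurred in 7.59% of these promoters. The palindromic DUX motif, searched as TGATT and AATCA with 1 base between them, occurred in 0.0304% of them and in none of the 6 member stretches. The same held for the AP-1 site TGANTCA (6.75%), the full element TGACGTCA (1.55%, which contains TGACG) and the CArG box bound by serum response factor (1.47%). Sites more than 250 bases before the RefSeq start were not searched, and Egr1, Ier2 and Fosl1 had no entry. The absences therefore do not show that a member lacks these sites. The Jund stretch (chr8:70697489-70697738) lay well upstream of the gene model used for counting, and that of Fosl2 (chr5:32136222-32136471) lay inside it. The EGR site GCGGGGGCG (2.57%) was found in Fosb, 50 bases before the start, and in Fosl2, at 79 bases.

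Junb (ENSMUSG00000052837; mm10 chr8:84974484-84978718, minus strand), which encodes the Jun protein that can hold back Jun, was high without DUX and lowest with full-length DUX. Its normalised counts were 437 and 512 in the mCherry libraries and 10.3 and 10.7 in the FL_Dux libraries, from 7 and 9 reads. C3+14 had 83.8 and 102. No library of these 3 groups overlapped with another group, and the 4 remaining groups lay between mCherry and C3+14. C1+14 stood at 226 and 215, C1C3b at 212 and 255, C1C3a at 372 and 289, and C1C3c at 188 and 428, where the replicates differed most. Neighbours in the order of means overlapped from C1C3a through C1C3c and C1C3b to C1+14.

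On the log2(value + 1) scale, on which all fold changes here are given, Junb was lower than in mCherry by limma in C3+14 (log2 fold change -2.34, SE 0.32, adjusted p = 2.71e-05), where a gene was called when its adjusted p was below 0.05 and its log2 fold change was at least 1 in either direction. Junb fell in C1+14 (-1.10, SE 0.32, adjusted p = 0.0177) and in C1C3b (-1.02, SE 0.32, adjusted p = 0.013), but both calls lay at the threshold. The call in C1+14 was lost when any of its 4 libraries was left out (limma adjusted p 0.056 to 0.12), and that in C1C3b when replicate 1 of C1C3b or replicate 2 of mCherry was left out (0.084 and 0.086). In C1C3c and C1C3a the log2 fold changes were -0.73 and -0.53 and neither passed, though C1C3c did without its replicate 2 (-1.32, adjusted p = 0.0035) and C1C3a did with libraries scaled to the same total (-1.44, adjusted p = 0.0024). For FL_Dux the difference from mCherry was -5.36, given as a description. Junb overlaps Prdx2, a peroxiredoxin gene on the opposite strand, and whether reads were counted by strand is not given in the sources used here. Prdx2 held 4475 to 5086 normalised counts in FL_Dux, 3083 to 3246 in mCherry and 2126 to 2417 in C1C3c. In the deletion table it held 5597 to 6255 in FL_Dux, 4608 to 5584 in C12345delt14, 3142 to 3500 in deltC12345+14 and 3320 to 4114 in deltC12345delt14. Prdx2 was thus highest in FL_Dux in both tables, where Junb was lowest. It held 5.76% of the 50-base stretches of Junb, and its part in the Junb counts was not tested.

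**Figure D1:**
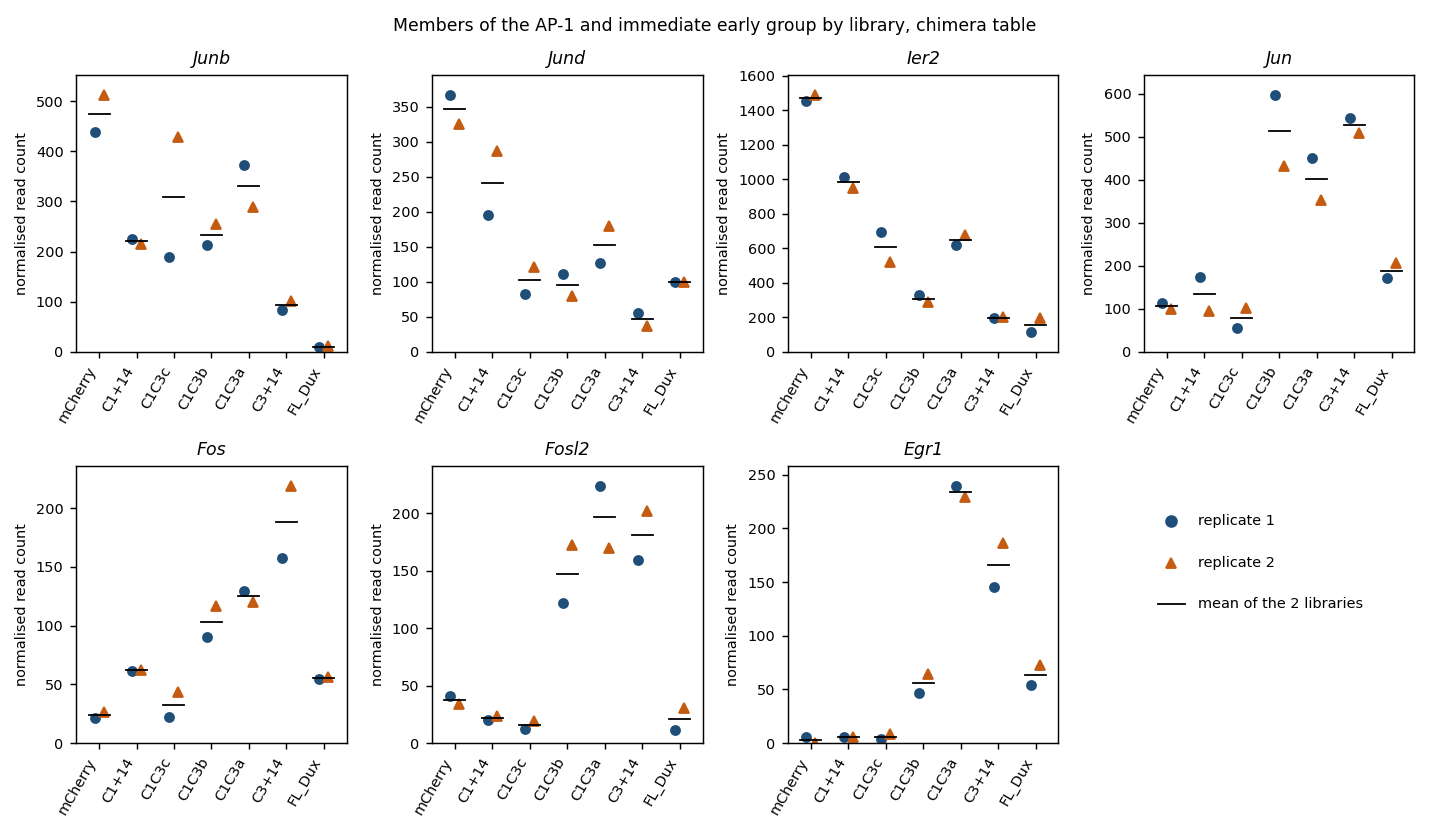
Normalised read counts (vertical axes, linear from 0) of the 7 tested members in the 14 libraries of the chimera table, by construct on the horizontal axes; circles are replicate 1, triangles replicate 2 and bars the mean of the 2 libraries. Junb runs from 437 and 512 in mCherry to 10.3 and 10.7 in FL_Dux, while Egr1 runs from 5.94 and 0 in mCherry to 239 and 229 in C1C3a.

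Jund and Ier2 were also highest in mCherry. Jund (ENSMUSG00000071076; chr8:70698949-70700616, plus strand), the most constant Jun gene in many cell types, stood at 367 and 326 in mCherry, 196 and 286 in C1+14, 126 and 179.8 in C1C3a, 82.9 and 122 in C1C3c, 111 and 79.8 in C1C3b, 100.2 and 99.99 in FL_Dux, and 55.3 and 37.3 in C3+14. The lowest group was thus C3+14 and not FL_Dux, and the FL_Dux libraries lay within the ranges of C1C3c and C1C3b. Jund fell in 5 of the 6 constructs against mCherry, with log2 fold changes of -2.90 in C3+14 (SE 0.31, limma adjusted p = 2.92e-06), -1.86 in C1C3b, -1.78 in FL_Dux, -1.77 in C1C3c and -1.19 in C1C3a. Without replicate 1 of C1C3a that last value was -0.94 and was no longer called. In C1+14 the log2 fold change was -0.54 and did not pass (adjusted p = 0.202). An antisense gene model on the other strand, Gm11175, held 48.3% of the 50-base stretches of Jund but had 0 reads in every library.

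Ier2 (ENSMUSG00000053560; chr8:84661331-84662852, minus strand), a small nuclear protein gene of the immediate early class, had the highest level per kilobase of exon of the members in mCherry and in FL_Dux, and in C3+14 stood below Jun (130 against 165 normalised counts per kilobase). Its normalised counts were 1450.3 and 1487 in mCherry, 1015 and 949 in C1+14, 617 and 675 in C1C3a, 697 and 518 in C1C3c, 327 and 286 in C1C3b, 196 and 201 in C3+14, and 116 and 194 in FL_Dux. The libraries of FL_Dux lay below those of all other groups, and those of mCherry above. Against mCherry it fell in FL_Dux (log2 fold change -3.28, SE 0.21, limma adjusted p = 3.1e-08), whose libraries took part in the choice of members. It also fell in C3+14 (-2.88), C1C3b (-2.26), C1C3c (-1.29) and C1C3a (-1.19). In C1+14 the value was -0.58 (limma adjusted p = 0.055).

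Jun and Fos went the other way. Jun (ENSMUSG00000052684; chr4:95049034-95052222, minus strand) stood at 545 and 509 in C3+14, 597 and 432 in C1C3b, 452 and 353 in C1C3a, 171 and 206 in FL_Dux, 173 and 94.9 in C1+14, 113 and 100.4 in mCherry, and 55.8 and 102 in C1C3c. C3+14, C1C3b and C1C3a formed a high group with no overlap with the other 4 constructs. Against mCherry, Jun rose in C3+14 (log2 fold change 2.30, SE 0.32, limma adjusted p = 3.42e-05), C1C3b (2.24) and C1C3a (1.90, and 0.98 with libraries scaled to the same total). In FL_Dux the log2 fold change was 0.81 and under the size a call needs (adjusted p = 0.0404); it was -0.21 with that scaling.

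Fos (ENSMUSG00000021250; chr12:85473890-85477273, plus strand), the classical partner of Jun, stood at 157 and 219 in C3+14, 130 and 120.3 in C1C3a, 90.3 and 116 in C1C3b, 61.4 and 62.6 in C1+14, 54.5 and 55.9 in FL_Dux, 21.9 and 43.3 in C1C3c, and 21.1 and 26.6 in mCherry. Only the C1C3c libraries overlapped with those of mCherry. Fos rose against mCherry in 5 of the 6 constructs: by 2.92 in C3+14 (SE 0.34, limma adjusted p = 7.38e-06), 2.35 in C1C3a, 2.07 in C1C3b, 1.35 in C1+14 and 1.19 in FL_Dux. The call in FL_Dux was lost without replicate 1 of mCherry (1.03, adjusted p = 0.064) and under 3 other settings, and that in C1+14 without the same library (1.19, adjusted p = 0.078). Against C1+14, the control construct of the same library kind, FL_Dux had a Fos log2 fold change of -0.16.

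Fosl2 and Egr1 were also high in C3+14, C1C3a and C1C3b. Fosl2 (ENSMUSG00000029135; chr5:32135801-32157842, plus strand), which encodes the Fos-related protein Fra-2, stood at 224 and 169.9 in C1C3a, 159 and 202 in C3+14 and 122 and 173 in C1C3b, against 40.9 and 34.3 in mCherry, 19.7 and 23.6 in C1+14, 11.8 and 30.9 in FL_Dux and 12.1 and 19.6 in C1C3c. It rose against mCherry by 2.35 in C1C3a (SE 0.43, limma adjusted p = 0.000335), by 2.23 in C3+14 and by 1.93 in C1C3b. It fell by 1.23 in C1C3c (adjusted p = 0.0317), a call lost without replicate 1 of C1C3c (adjusted p = 0.177) or either mCherry library (0.146 and 0.079). In FL_Dux the value was -0.93 and did not pass (adjusted p = 0.0754), but it passed without replicate 2 of FL_Dux (-1.59, adjusted p = 0.0055), with quantile normalization (-1.59) and with the same total (-1.88).

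Egr1 (ENSMUSG00000038418; chr18:34859823-34864984, plus strand), a zinc finger factor read out widely as a mark of ERK signalling, had 239 and 229 in C1C3a, 146 and 186 in C3+14, 54.5 and 72.6 in FL_Dux, and 46.5 and 64.8 in C1C3b. In the other groups it was at the edge of detection, with 5.94 and 0 in mCherry (9 and 0 reads), 5.85 and 5.58 in C1+14, and 3.77 and 8.12 in C1C3c. It rose against mCherry in C1C3a (log2 fold change 6.48, SE 0.68, limma adjusted p = 2.82e-06), C3+14 (5.98), FL_Dux (4.60) and C1C3b (4.41). In C1+14 and C1C3c the values were 1.35 and 1.32, and did not pass. They rested on the mCherry library used: without replicate 1 they passed (2.75 and 2.72, adjusted p = 0.0045 and 0.0023), and without replicate 2 they were -0.05 and -0.07.

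The last pair, Fosb (ENSMUSG00000003545; chr7:19302696-19310051, minus strand) and Fosl1 (ENSMUSG00000024912; chr19:5447547-5455946, plus strand), which encodes Fra-1, stayed below the filter of 10 normalised counts in at least 2 libraries in both tables. Fosb ranged from 0 to 10.1 and Fosl1 from 0 to 9.91, so neither was tested; 7 of the 9 members were.

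Against mCherry all 7 tested members were called in C3+14, 4 higher and 3 lower, where 47.3% of all 21584 genes tested were called in either direction. In C1C3b it was also 4 higher and 3 lower (44.7% of all genes), and in C1C3a 4 higher and 2 lower (46.4%). In FL_Dux 2 were higher and 3 lower (44.2%), the lower count including Junb. C1C3c had 0 higher and 3 lower (28.8%), and C1+14 had 1 higher and 1 lower (18.3%). The contrasts share the mCherry libraries. The direction of each gene was the same in C3+14, C1C3a and C1C3b: Jun, Fos, Fosl2 and Egr1 above mCherry, and Junb (not called in C1C3a), Jund and Ier2 below it.

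**Figure D2:**
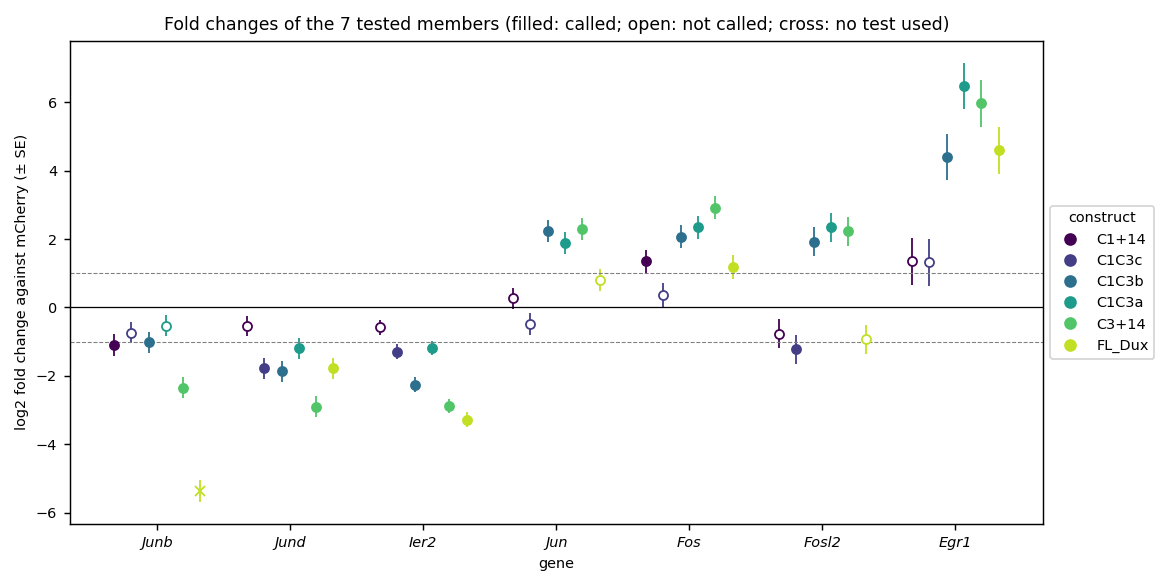
Log2 fold change against mCherry (vertical axis, ± SE from limma) of the 7 tested members (horizontal axis) in the 6 constructs of the chimera table; filled points were called, open points were not, the cross is the Junb value of FL_Dux, which has no test, and dashed lines mark 1 and -1. Junb, Jund and Ier2 lie below 0 in every construct, while Egr1 reaches 6.48 in C1C3a.

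The 3 constructs that join C1 and C3 were also compared with C1+14, whose libraries were of the same kind. In C1C3a, 3 of the 7 members were called, 3 higher and 0 lower (40.8% of all genes were called, 23.4% higher and 17.3% lower): Jun by 1.63 (SE 0.32, and 0.50 with libraries scaled to the same total, where it did not pass), Fosl2 by 3.12 (SE 0.43) and Egr1 by 5.13 (SE 0.68, limma adjusted p = 3.06e-05). With libraries scaled to the same total the split in C1C3a was 2 higher and 2 lower, with Jund (-1.78, adjusted p = 0.000232) and Ier2 (-1.74, adjusted p = 7.32e-05) called lower. In C1C3b Jun, Fosl2 and Egr1 rose, Jun by 1.98, Fosl2 by 2.69 and Egr1 by 3.06, and Jund and Ier2 fell, with -1.32 and -1.68 (28.9% of all genes called, 17.9% higher and 11% lower). The Jund call was lost with only these groups in the fit (adjusted p = 0.051) and that of Egr1 with a pseudocount of 0.1 (0.072). In C1C3c the one call was Jund, which fell by 1.23 (7.83% of all genes called, 5.37% higher and 2.46% lower), and it was lost without replicate 1 of C1C3c or replicate 2 of C1+14 (limma adjusted p 0.093 and 0.167). Junb did not pass in any of the 3 comparisons, with a largest log2 fold change of 0.57 in C1C3a (SE 0.32, adjusted p = 0.138), which was -0.56 when libraries were scaled to the same total. Against C1+14 instead of mCherry, FL_Dux had 1 member higher, Egr1 by 3.25. In it 3 were lower, Jund (-1.23), Ier2 (-2.70) and Junb, whose low level in FL_Dux is a description only. Of all genes 39.9% were called, 21.5% higher and 18.4% lower.

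The make-up of the Jun family was read within each library, where scaling plays no part. There were 17.9 ± 1.87 reads of Jun for each read of Junb in FL_Dux (SD, n = 2), 5.74 ± 1.07 in C3+14, 2.25 ± 0.79 in C1C3b and 1.22 ± 0.0045 in C1C3a. The FL_Dux ratio rests on 7 and 9 reads of Junb, so its SD over 2 libraries may understate the uncertainty. Because the low Junb level of FL_Dux chose the gene, the ratio and shares of FL_Dux are descriptions only. Junb was the larger count in the other groups, with a ratio of 0.605 ± 0.23 in C1+14, 0.267 ± 0.041 in C1C3c and 0.227 ± 0.044 in mCherry. Per kilobase of exon, Jun made up 7.47% of the 3 Jun genes in mCherry, Junb 46.1% and Jund 46.4%. In FL_Dux the shares were 47.7%, 3.70% and 48.6%, and in C3+14 they were 70.8%, 17.4% and 11.8%. The summed Jun family level per kilobase, unlike these ratios and shares, does depend on how the libraries were scaled. It was 447 ± 2.9 normalised counts in mCherry, 361 ± 24.8 in C1C3a, 233 ± 10.01 in C3+14 and 124 ± 7.8 in FL_Dux. In a bulk library, fewer cells with a transcript and less of it per cell cannot be told apart.

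**Figure D3:**
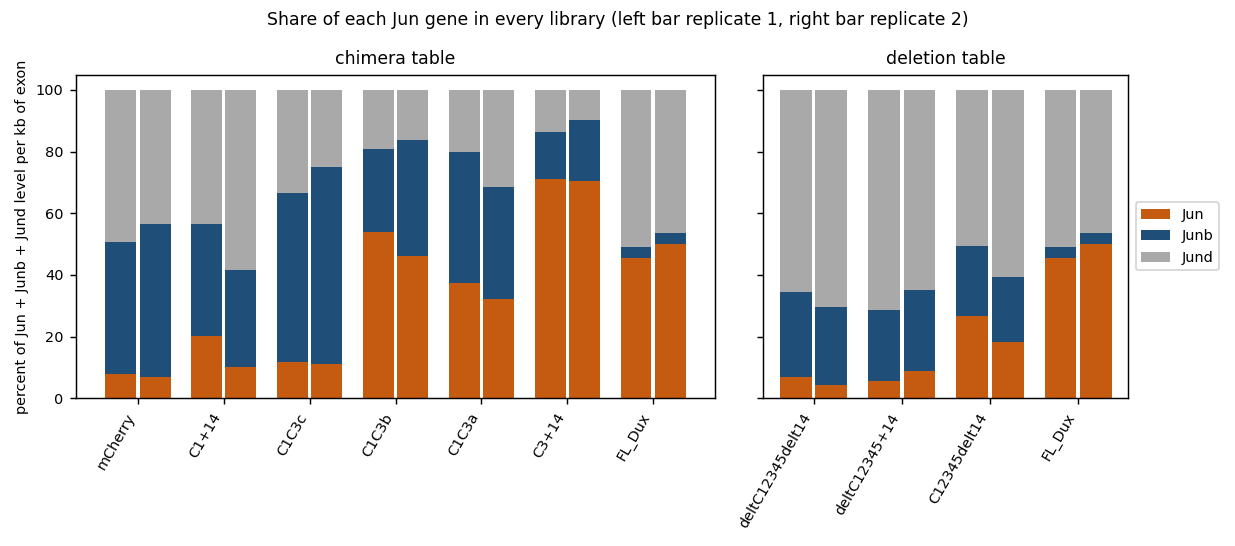
Share of Jun, Junb and Jund in their summed level per kilobase of exon (vertical axis, percent) in every library, by construct (horizontal axis), with replicate 1 as the left and replicate 2 as the right bar of a pair; the left panel is the chimera table and the right panel the deletion table. Junb makes up 46.1% on average in mCherry and 3.70% in FL_Dux.

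In order of level per kilobase, the mCherry cells had Ier2 first (965 normalised counts per kilobase), then Jund (208), Junb (206), Jun (33.4), Fos (10.1), Fosl2 (3.89), and Fosl1, Fosb and Egr1 last. In FL_Dux the order was Ier2 (102), Jund (60.01), Jun (59.1), Fos (23.5), Egr1 (14.2), Junb (4.57) and Fosl2 (2.21). Junb thus moved from the third place to the sixth, which is a description only, as its low level in FL_Dux chose it.

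In the deletion table the contrast by which the genes were picked came first. Junb had 12.7 and 13.4 normalised counts in FL_Dux and 141 and 172 in C12345delt14, the construct labelled as lacking the tail. Ier2 went from 143 and 243 to 452 and 849, Jund from 123 and 125 to 227 and 356, and Fosl2 from 14.5 and 38.7 to 85.7 and 89.4. These 4 genes were higher in C12345delt14, by log2 differences of 3.48, 1.73, 1.19 and 1.84. Egr1 went from 67.0 and 90.8 to 54.9 and 19.7, Jun from 210.2 and 258 to 227 and 204, and Fos from 67.0 and 70.0 to 90.3 and 58.2. Of the 7 members, 1 (Junb) was past the threshold for a call, as were 0.958% of 19833 genes, 0.338% higher and 0.62% lower. Because this contrast chose the members, nothing is read from that count.

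Both constructs labelled as lacking C1 to C5 had still more Junb, Jund and Ier2. Junb stood at 217 and 346 in deltC12345+14 and at 419 and 450.0 in deltC12345delt14, Jund at 485 and 618 and at 716 and 908, and Ier2 at 1414 and 1410 and at 1537 and 1746. All these libraries lay above those of C12345delt14 and of FL_Dux. Against FL_Dux, whose libraries took part in the choice, Jund rose by 2.13 in deltC12345+14 (SE 0.26, limma adjusted p = 0.000616) and by 2.69 in deltC12345delt14 (SE 0.26, adjusted p = 0.000185). Ier2 rose by 2.91 and 3.13 (SE 0.33 each, adjusted p = 0.000424 and 0.000268), and Junb differed by 4.29 and 4.96, again given as a description.

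Egr1 was close to absent in both, with 4.21 and 6.46 in deltC12345+14 and 0.821 and 5.80 in deltC12345delt14, and fell against FL_Dux in both, with log2 fold changes of -3.66 (SE 0.77, limma adjusted p = 0.00545) and -4.49 (adjusted p = 0.00217). Jun stood at 70.8 and 162 and at 141 and 109. The fall of Jun by 1.11 in deltC12345+14 passed narrowly (limma adjusted p = 0.0436), and it was lost under several settings, without replicate 1 of deltC12345+14 among them (-0.52, adjusted p = 0.233). Fos (107 and 104, 124 and 119) and Fosl2 (44.2 and 91.2, 51.7 and 79.6) did not pass, with log2 fold changes of 0.61 and 0.81 for Fos and of 1.38 and 1.39 for Fosl2. Fosl2 did pass without replicate 2 of FL_Dux (2.06 and 2.07, limma adjusted p = 0.0259 and 0.025), in deltC12345+14 also without its replicate 1 (1.89), and with the replicate number as a block (adjusted p = 0.0386 and 0.0368). It passed with quantile normalization (1.86 and 1.91) and with the same total (2.53 and 2.503), where Fos passed too (1.81 and 1.97); Fos also passed with quantile normalization in deltC12345delt14 (1.06). The counts that follow include Junb, whose low level in FL_Dux chose it, and Egr1, and nothing is read from either. With them, 3 members were higher and 2 lower in deltC12345+14 (38.4% of all genes called, 18.4% higher and 20% lower), and 3 higher and 1 lower in deltC12345delt14 (39.1%, 18.8% higher and 20.3% lower).

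The pair whose names differ by the tail alone, deltC12345+14 and deltC12345delt14, gave 0 calls among the members and 0% of all genes by limma, with 543 genes at an unadjusted p under 0.05. edgeR gave 0 genes and DESeq2 4. Junb had a log2 fold change of -0.66 (SE 0.31) and Jund -0.56 (SE 0.26), and neither was called. Each of these groups holds 1 library of each kind, so the spread within a group includes the difference between kinds. Over all genes, replicate 1 minus replicate 2 ran in opposite directions in the 2 groups (r = -0.574). The lack of calls therefore does not show that the tail had no effect here. Jun was higher in the library with the lower high-copy share in both groups (162 against 70.8 and 141 against 109), whereas Junb was higher in it in deltC12345+14 (346 against 217) and lower in deltC12345delt14 (419 against 450.0). The Jun to Junb read ratio was 1.40 ± 0.31 in C12345delt14, 0.397 ± 0.099 in deltC12345+14 and 0.289 ± 0.067 in deltC12345delt14.

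**Figure D4:**
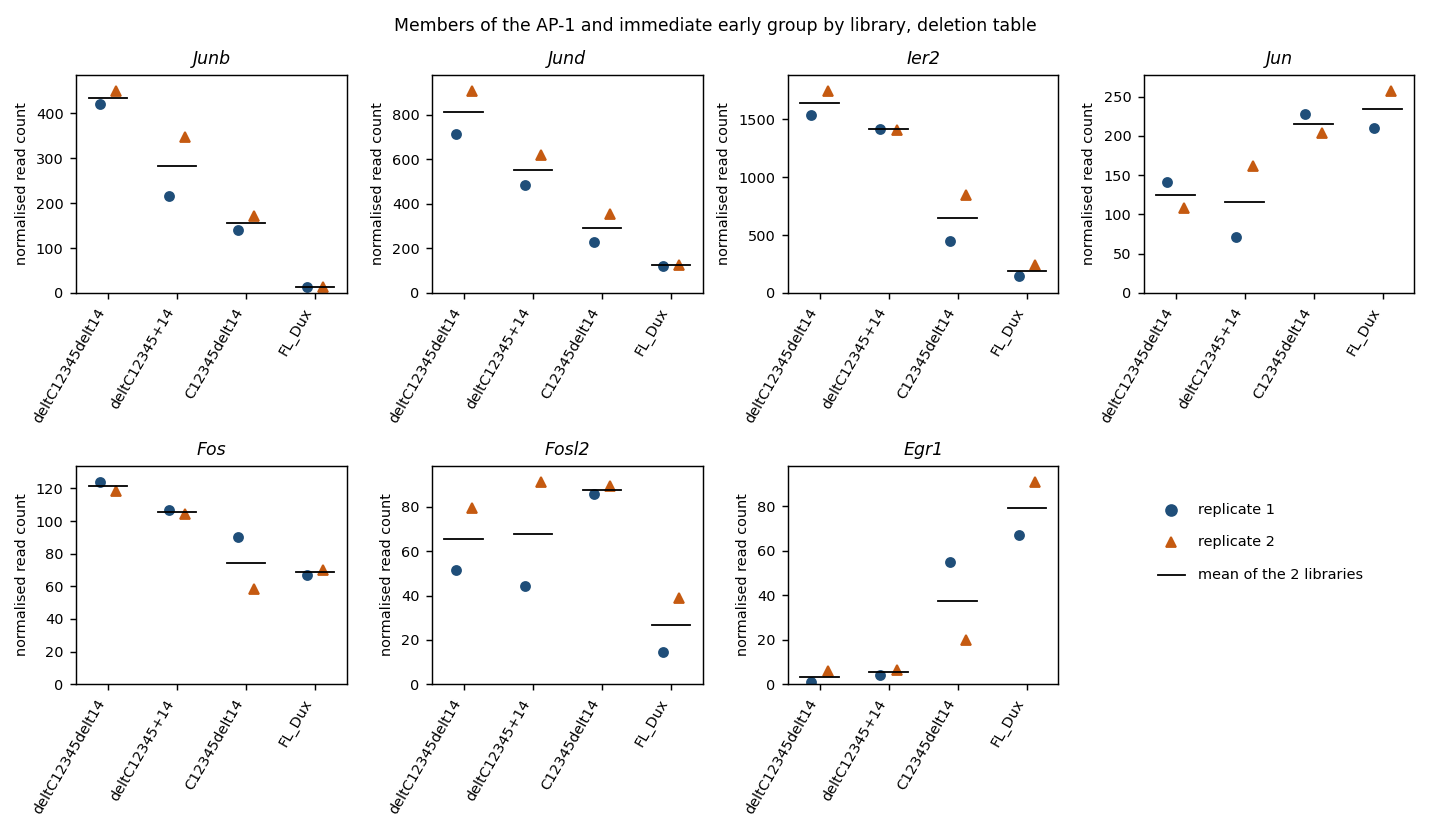
Normalised read counts (vertical axes, linear from 0) of the 7 tested members in the 8 libraries of the deletion table, by construct on the horizontal axes; circles are replicate 1, triangles replicate 2 and bars the mean of the 2 libraries. Junb runs from 419 and 450.0 in deltC12345delt14 to 12.7 and 13.4 in FL_Dux, and Egr1 the other way.

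The genes whose pattern over the 14 chimera libraries was most like that of Junb, by Pearson's r of log2(value + 1) among 13518 genes with a mean of 50 or more, were Amotl2 (r = 0.967), Zfp46 (0.958), Rsbn1 (0.957), Asb8 (0.955) and Maco1 (0.955). Amotl2, which encodes an angiomotin-like protein, averaged 391 normalised counts in FL_Dux, 1605 in C3+14 and 3243 in mCherry. In the deletion table it had 402 and 569 in FL_Dux against 1972 and 2058 in C12345delt14. Of the members, Ier2 was the most like Junb (r = 0.784, place 367), followed by Jund (0.448), Fosl2 (0.236), Jun (-0.121), Fos (-0.144) and Egr1 (-0.370). The libraries of a group share their construct, so these values describe the pattern and carry no p. The 14 libraries include those of FL_Dux, whose low Junb level chose the gene. The Amotl2 values of the deletion table are from the contrast that chose it, so nothing is read from the likeness there.

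The wider immediate early class was listed as 31 further genes, of which 27 were tested. In FL_Dux, 20 of the 27 fell and 1 rose against mCherry, where 19.6% of all genes fell and 24.5% rose, and the median log2 fold change of the list was -1.83 against 0.09 for all genes. Trib1, a pseudokinase gene, went from 228 and 225 to 1.47 and 17.9, and fell by 5.06 (SE 0.85). Myc, the growth factor-induced transcription factor, fell by 4.46 from 263 and 259 to 23.6 and 4.76. Nr4a1, an orphan nuclear receptor gene, fell by 3.85 from 985 and 959 to 48.6 and 90.5. The riser was Ier5, from 52.8 and 48.0 to 181 and 115 (1.504, limma adjusted p = 0.003).

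In C3+14, 4 of the 27 rose and 9 fell (29.6% and 17.7% of all genes), led by Ier5 (3.12), Plk2 (2.96), a polo-like kinase gene, and Cyr61 (2.67), a secreted matrix protein gene, while Gadd45g (-5.26) and Trib1 (-3.73) fell. In C1C3a and in C1C3b 5 rose and 11 fell (27.4% and 19%, and 27.6% and 17.1%), in C1C3c 4 and 13 (18.3% and 10.5%), and in C1+14 1 and 10 (12.4% and 5.95%). Against FL_Dux, 18 of the 27 rose and 0 fell both in deltC12345+14 and in deltC12345delt14, where 18.4% and 18.8% of all genes rose; Trib1 (5.05), Nr4a1 (3.82) and Ier3 (3.63) led in the latter. In C12345delt14, the contrast that chose the members, Klf10 (1.93), Zfp36 (1.87) and Mcl1 (1.53) were past the threshold, 3 of the 27 higher and 0 lower. That 3 was not stable: it was 0 when replicate 1 or replicate 2 of C12345delt14 or replicate 1 of FL_Dux was left out, 8 without replicate 2 of FL_Dux, and 0 to 10 over the 15 settings.

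Over the same settings the count of the 27 that fell against mCherry ranged from 18 to 25 in FL_Dux, 8 to 13 in C3+14, 10 to 13 in C1C3a, 8 to 13 in C1C3b, 10 to 14 in C1C3c and 5 to 11 in C1+14. The 10 of C1+14 became 6 without its replicate 1 and 5 and 6 without replicates 1 and 2 of mCherry. The count that rose ranged from 0 to 1 in FL_Dux, 4 to 7 in C3+14, 3 to 7 in C1C3a and 0 to 3 in C1+14, and from 17 to 24 in both constructs labelled as lacking C1 to C5 against FL_Dux.

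**Figure D5:**
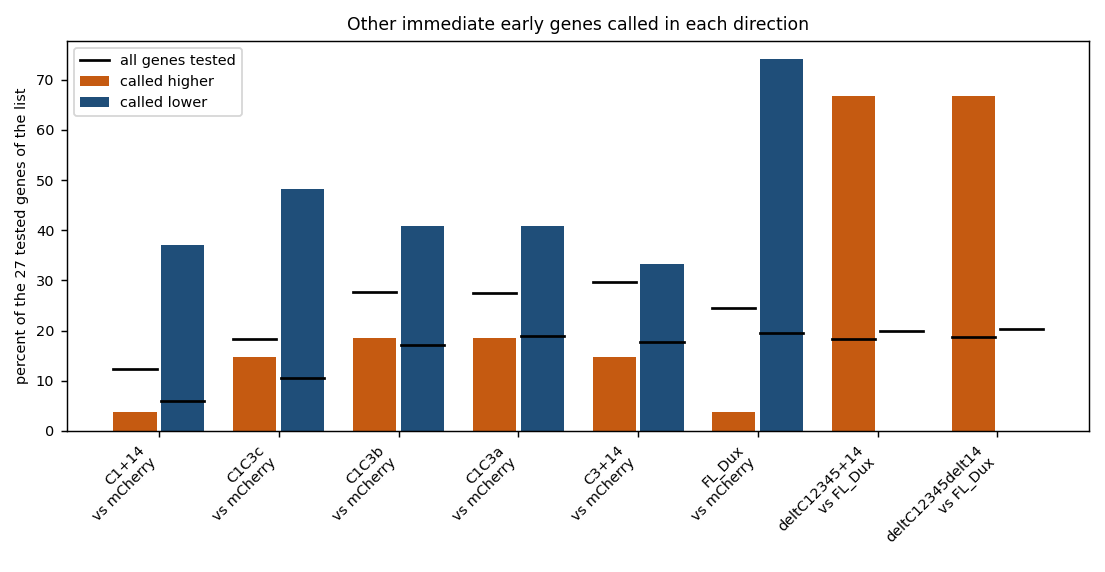
Percent of the 27 tested genes of the immediate early list (vertical axis) called higher and called lower in each comparison (horizontal axis); black lines give the percent of all genes tested. The bar for genes lower in FL_Dux than in mCherry stands for 20 of the 27 genes, and the line over all genes at 19.6%.

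Genes at the neighbouring steps of the pathway were also counted. Of 12 feedback genes that ERK induces, 6 fell and 1 rose in FL_Dux against mCherry, where 19.6% of all genes fell and 24.5% rose: the inhibitor genes Spry4 (-4.10) and Spry1 (-2.81) and the phosphatase gene Dusp6 (-3.56) were lower, and Dusp5 was higher by 1.18. In C1C3a 3 rose and 1 fell, where 27.4% of all genes rose and 19% fell. Neither count of C1C3a lies above its share, so the counts of C1C3a are no result about the list. In C1C3a Dusp4 was up by 3.76, Dusp5 by 2.37 and Dusp1 by 1.14, and Etv5, an ETS factor gene, was lower (-2.25). Of 20 upstream genes (ligand, receptors, kinases, and the factors SRF, ELK and CREB), 5 fell and 1 rose in FL_Dux. Of all genes, 19.6% fell and 24.5% rose there. The share of the upstream list that fell is near that of all genes, so its count is no result about the list. Fgf4, the ligand that embryonic stem cells make themselves, went from 3858 and 3911 to 45.7 and 256 (-5.15, SE 0.59), and it fell in C3+14 (-5.31) and in C1C3a (-6.16). Against FL_Dux, Fgf4 rose by 5.25 in deltC12345delt14.

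Of the other dimer partners of AP-1, 9 of 12 were tested in the chimera table, and 3 rose and 4 fell in FL_Dux, where 24.5% of all genes rose and 19.6% fell. Atf2 rose by 1.51, from 1635 and 1608 to 5270 and 4059, and by 2.61 in C3+14; Mafg fell in both (-2.49 and -2.95), as did Jdp2, a repressor that pairs with Jun proteins (-2.17 and -4.13). Of 16 genes known as AP-1 targets, 12 were tested, and 0 rose and 3 fell in FL_Dux: Ccnd1, the cyclin gene of the G1 phase (-2.20), Itga5 (-1.18) and Hmox1 (-1.01). The share of these targets that fell is near that of all genes, so the count is no result about the list. Of 9 heat shock genes, listed as a sign of stress, 3 rose and 0 fell in FL_Dux, where 24.5% of all genes rose and 19.6% fell. The share that rose is near that of all genes, so this count too is no result about its list. The genes that rose were Hspa1a by 1.60, Hspb1 by 1.37 and Hspa1b by 1.07. Their part in the levels of the members was not tested.

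Markers of other cells also differed between groups. The 10 fibroblast genes, whose cells express AP-1 genes strongly, summed to 131 to 435 normalised counts in the chimera table; the range was 306 to 308 in mCherry and 189 to 275 in FL_Dux, and Lum and Dcn were at 0 in both. The 6 trophectoderm genes summed to 1652 to 1754 in mCherry and 134 to 206 in FL_Dux, with Hand1 at 0 in the latter. The 7 primitive endoderm genes summed to 189 to 202 in mCherry, 155 to 193 in FL_Dux and 674 to 732 in C3+14, with Sox7 at 0 in FL_Dux. Of the 10 pluripotency genes, 7 fell and 0 rose in FL_Dux against mCherry, and 6 of 6 two-cell genes rose. Of all genes, 19.6% fell and 24.5% rose in that comparison. The part of these shifts in the results on the members was not tested.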

How the data were processed

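RNA was sequenced from 22 samples in 11 groups of 2; 20 libraries of 10 groups were analysed, and C3delt14 was not analysed here. The deposited values are a normalised signal: reads per gene divided by a size factor per library, made by the authors with DESeq2 on mm10 after Trim Galore 0.5.0 and FastQC, per the submitters' processing notes. The aligner and counter are not given in the sources used here. All 574693 nonzero values were whole multiples of 1 read (100%, within 0.001), so reads were recovered. Symbols came from GENCODE M21.

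Genes with 10 or more normalised counts in at least 2 libraries (21584 in the chimera and 19833 in the deletion table) were fitted by limma 3.58.1 in R 4.3.3 on log2(value + 1), with all groups of a table sharing the spread and Benjamini-Hochberg adjustment over all genes. A permutation test of 2 against 2 cannot go below p = 0.333. On recovered reads, edgeR 4.0.16 called 9502 and DESeq2 1.42.0 called 8994 genes for FL_Dux against mCherry, where limma called 9531. On simulated data 197 and 198 of 200 changed genes were recovered in the 2 tables. There, all libraries of a table were drawn from the mean of the same group, with a fixed spread and no library kinds. The changed genes had a mean of at least 50. The recovery checks the fit and does not give the power in the real libraries. The text names all 9 members, the 5 genes most like Junb, and, from each list, up to 3 called genes per direction with the largest fold change and a mean of at least 50. The members and gene lists were chosen with earlier results of these data known. Alternatives were other pseudocounts, filters, scalings, tools, blocks and left-out libraries.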

Additional observations from a re-analysis of the deposited data

How the results depend on the processing

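The direction of every called member fold change (49 in all) held under every setting with the same control except that of Jun in deltC12345+14 against FL_Dux, which was 0.0946 with libraries scaled to the same total. Where a count of members involves FL_Dux, Junb is included only as a description, and so is Egr1 in the deletion table. That scaling moved the median of all genes to -0.85 in FL_Dux, -0.73 in C1C3a and -0.51 in C3+14 against mCherry, to -0.94 in C1C3a against C1+14, and to 1.11 and 1.05 in deltC12345+14 and deltC12345delt14 against FL_Dux; quantile normalization moved it to -0.27, -0.32 and -0.25 in the first 3. With the same total, the share of calls that were higher went from 55.5% to 27.9% in FL_Dux, 62.6% to 37.4% in C3+14, 59.0% to 32.8% in C1C3a, 67.5% to 79.9% in C1+14, 57.5% to 21.3% in C1C3a against C1+14, 61.9% to 45.9% in C1C3b against C1+14, and 47.9% to 83.2% and 48.1% to 81.7% in the 2 constructs without C1 to C5. Quantile normalization gave 47.8% in place of 61.7% in C1C3b and 53.6% in place of 63.6% in C1C3c against mCherry, and 47.2% in place of 35.3% in C12345delt14. Counts of members called moved as follows: in C1+14 against mCherry to 1 with quantile normalization and 1 with the same total; in C12345delt14 against FL_Dux to 3 with a pseudocount of 8, edgeR and DESeq2, to 2 with quantile normalization and with only these groups, and to 0 with the same total; in C1C3a against C1+14 to 5 with adjusted p alone; and in C1C3c against C1+14 to 2 with adjusted p alone and to 0 with only these groups. Over all genes C12345delt14 against FL_Dux gave 190 calls by limma, 467 by edgeR, 1293 by DESeq2, 434 with quantile normalization and 0 with the same total; it gave 30 with a pseudocount of 0.1 or no filter, 1172 with a pseudocount of 8, 888 with only these groups, 45 with the replicate block, 1392 without replicate 2 of FL_Dux and 0 without any of the other 3 libraries.

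Leaving out each library gave counts of 4 to 6 in FL_Dux, 7 to 7 in C3+14, 5 to 6 in C1C3a, 6 to 7 in C1C3b, 2 to 4 in C1C3c and 1 to 1 in C1+14 against mCherry; 3 to 3, 5 to 5 and 0 to 2 in C1C3a, C1C3b and C1C3c against C1+14; 0 to 3 in C12345delt14 and 4 to 5 in both constructs without C1 to C5 against FL_Dux; and 0 to 0 between those. Uncalled fold changes that turned were, with the same total, Jun in FL_Dux against mCherry (-0.21), Junb and Fos in C1C3a against C1+14 (-0.56 and -0.12) and Jun in deltC12345delt14 against FL_Dux (0.26); without replicate 2 of mCherry, Egr1 in C1C3c and C1+14; and without replicate 1 of deltC12345delt14, Egr1 between the constructs without C1 to C5. Over the left-out libraries these Egr1 values ranged from -0.0736 to 2.72, from -0.0476 to 2.75 and from -0.13 to 1.78. With C1+14 in place of mCherry, chosen after seeing the data, Fos in FL_Dux was -0.16 and 4 members were called, Junb among them as a description. The cause was not tested. Replicate numbers did not pair the libraries (r of -0.101 to 0.050 over 21 pairs of groups, and -0.574 to 0.135 over 6); with the replicate block the members called were 5 in FL_Dux, 7 in C3+14, 6 in C1C3a and 7 in C1C3b against mCherry, and 1 in C12345delt14 and 5 in each construct without C1 to C5 against FL_Dux. There the block ended the call of Jun in deltC12345+14 (adjusted p = 0.0553) and made that of Fosl2 in both (0.0386 and 0.0368). Crossing the numbers of the constructs without C1 to C5, added after seeing the data, left 0 calls. Depth limits Fosb, Fosl1, Egr1 in mCherry and Junb in FL_Dux, each at a few reads.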
